A study of Cynara cardunculus with 36 samples.

Results

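Between day 7 and day 14 of cold storage, hearts of the globe artichoke cultivar Green Globe Improved (GGI) were compared over 6 RNA-seq libraries, 3 of heads stored for 14 days and 3 of heads stored for 7 days, out of 36 libraries in the series. The libraries were chosen by their titles, and the comparison covers the later part of storage. GGI plants were raised in a Florida field trial with gibberellic acid (GA), which brings flowering forward, as were those of the other cultivars Opal (OP), Imperial Star (IS) and Green Queen (GQ). The heads of all cultivars were chilled before the first sampling at day 0, so that no group is free of cold. Each cultivar has 3 libraries per day, called biological replicates, and no label ties a head at day 14 to a head at day 7. The series asks which genes take part in the rapid ageing of the harvested head.

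The artichoke head is an unopened inflorescence, and its heart is the fleshy receptacle with the tender inner bracts. The cells stay alive after harvest: they respire, lose water and draw on reserves that the plant no longer renews, and chilling slows these processes without stopping them. The tissue is rich in caffeoylquinic acids such as chlorogenic acid, and it browns when these phenolics meet polyphenol oxidase and oxygen in damaged cells. Gene models carry IDs and no names in the files. Of 28632 IDs, 0 matched the RefSeq genes of the assembly CcrdV1.1, so no function can be given to any gene model, and the changes are described by their size, by the level of the gene models before storage and by their behaviour in other cultivars. In whole hearts, fewer cells of a type and less RNA per cell cannot be told apart.

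Of the GGI libraries, 2 stood apart by measures outside the comparison. The library labelled GGI day 14 replicate 1 went against its cultivar label. At day 0, 99 gene models told GGI from GQ by being on in each library of one cultivar and off in each of the other, and 39 kept their state in all day 7 libraries of both cultivars. Of these 39, the library labelled GGI day 14 replicate 1 showed 36 in the GQ state, whereas GGI day 14 replicates 2 and 3 showed 6 and 4. GGI day 7 replicate 2 had 33.5% of its listed reads outside gene models, against 10.0% to 13.5% in the other GGI libraries of any day. The depth of the 6 libraries, counted in gene models, was 32.7 to 47.7 M reads, and day 14 libraries carried the numbers 19 to 21 and day 7 libraries 31 to 33, so that library order and day cannot be told apart. Results are given with all libraries in their labelled groups and without the doubtful pair.

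Storage from day 7 to day 14 changed 6217 of the 21900 gene models tested in GGI hearts, or 28.4%. Of these, 3213 were higher at day 14 (14.7% of those tested) and 3004 were lower (13.7%), at an adjusted p under 0.05 in edgeR's quasi-likelihood test on the counts of all 36 libraries. Falls were larger than rises in the median, at 5.78-fold over the called gene models that fell and 3.51-fold over those that rose. Over 2-fold changes numbered 5412 (2717 higher, 2695 lower), over 4-fold changes 3303 (1435 higher, 1868 lower) and over 16-fold changes 1401 (618 higher, 783 lower). The largest changes were even in direction, with 591 over 64-fold (296 higher, 295 lower). These sizes are for all libraries. The split over 2-fold moved to 912 higher and 547 lower without the doubtful pair. With another scaling of the libraries (RLE) it was 2482 higher and 2962 lower. Over all gene models tested, called or not, the median absolute change was 0.82 on the log2 scale, and the median signed change was 0.

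The number of called gene models rested on single libraries. Without the doubtful pair, which leaves 2 libraries a side, 1511 gene models were called (6.81% of 22176; 950 or 4.28% higher, 561 or 2.53% lower), of which 1473 were among the 6217. Of the 6217, 6151 kept the sign of their fitted change in that fit. It reuses libraries by which the 6217 were called, so that the kept sign was largely given and supports nothing. Leaving out the library labelled GGI day 14 replicate 1 alone gave 3498 calls, leaving out GGI day 14 replicate 2 gave 3748 and leaving out GGI day 7 replicate 2 gave 3683. The spread is estimated over all libraries of the series, and without the 6 libraries that stood apart in it, the doubtful pair included, 5851 were called (25.8% of 22649; 3103 or 13.7% higher, 2748 or 12.1% lower), 4233 of them among the 6217. Fitted to the 6 GGI libraries alone, 3085 were called.

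**Figure D1:**
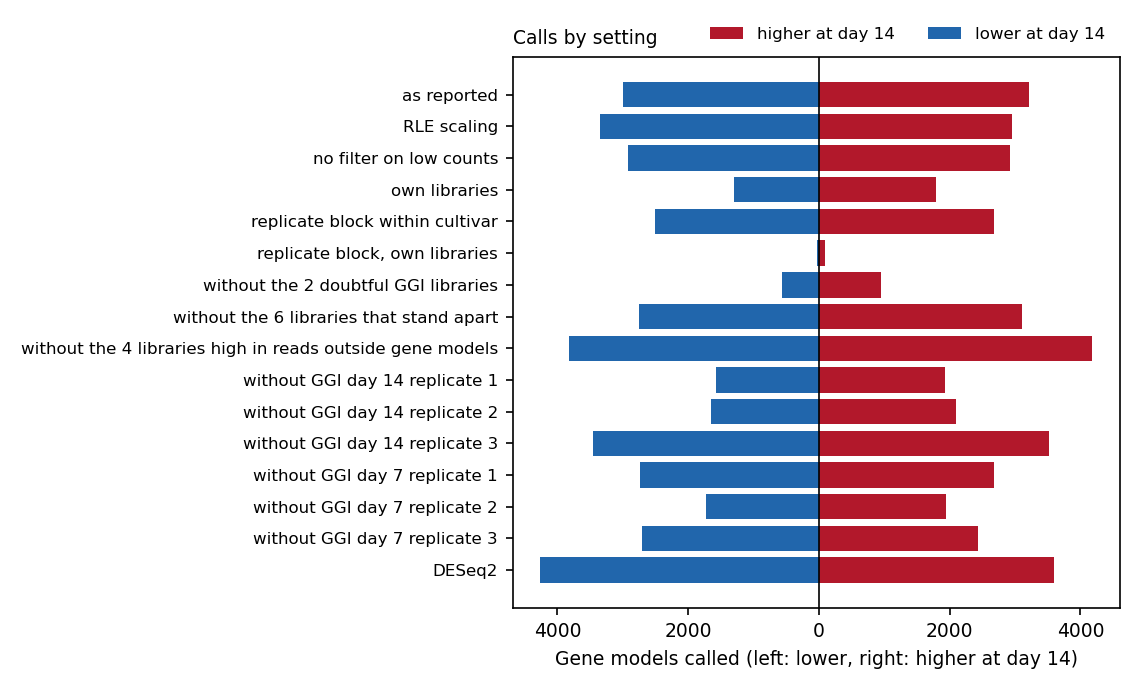
Gene models called higher (red, to the right) and lower (blue, to the left) at day 14 than at day 7 in GGI, in edgeR or DESeq2 at adjusted p under 0.05, for all libraries (top bar, 3213 and 3004) and for each alternative. The bars shrink to 950 and 561 without the doubtful pair, and to 118 in all with the replicate number as a block in the 6 libraries.

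The 3 heads of day 14 did not stand equally far from day 7. Across the 21900 gene models, log2 CPM of GGI day 14 replicate 3 correlated with r = 0.92 with each of GGI day 7 replicates 1 and 3, and with r = 0.90 and 0.92 with the other day 14 libraries. With day 7 replicate 2 it correlated less, at r = 0.83. GGI day 14 replicate 2 and the library labelled GGI day 14 replicate 1 lay closer to each other, at r = 0.94, and farther from day 7 replicates 1 and 3, at r from 0.80 to 0.83, and from day 7 replicate 2, at r = 0.77 and 0.73. Day 7 replicates 1 and 3 correlated at r = 0.96, and day 7 replicate 2 with them at r = 0.90 and 0.92. These values describe the libraries and carry no test, since the gene models of a library share its depth and its head.

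**Figure D2:**
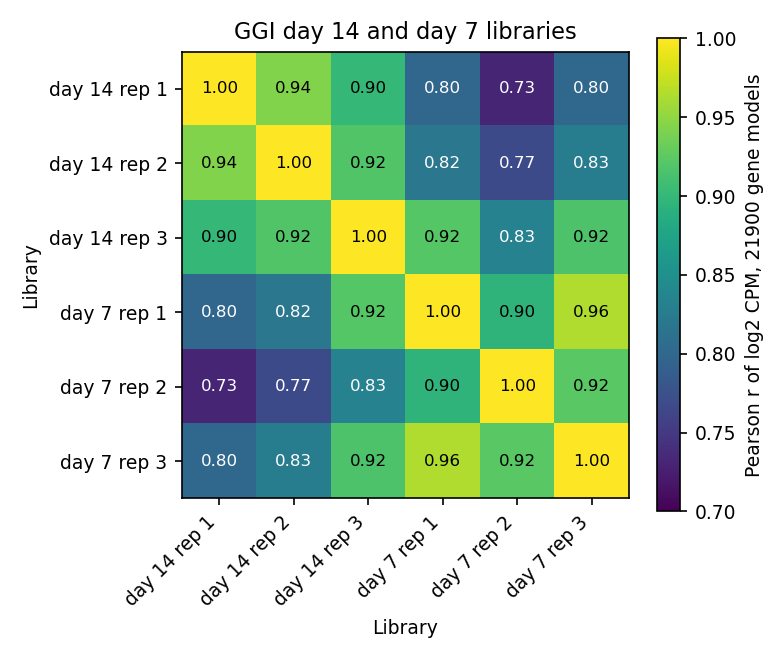
Pearson correlation of log2 CPM over 21900 gene models between the 6 GGI libraries, day 14 first. Day 14 replicate 3 is as close to day 7 replicates 1 and 3 (0.92) as to its own group (0.90 and 0.92), and farther from day 7 replicate 2 (0.83).

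Replicate 3 showed the changes of the later week at a smaller size. Over the called gene models, its log2 difference from the day 7 mean was in the median 62.0% of that of the other day 14 libraries (quartiles 43.2% and 83.0%). It was the least changed of the 3 day 14 libraries in 4673 of the 6217 called gene models, against 855 for the library labelled replicate 1 and 689 for replicate 2. The called gene models were picked with these same libraries, so that these values show size only. Across all those tested, the median absolute log2 difference from the day 7 mean was 0.61 in replicate 3. It was 0.95 in the library labelled replicate 1 and 0.94 in replicate 2. Of the 21900 gene models tested, 1560 lay above all day 7 libraries in the other day 14 libraries but not in replicate 3. In the same way, 1759 lay below them. In all, CPM (read counts scaled to a common library size) of day 14 and day 7 did not overlap in 10293 gene models (47% of those tested; 24% higher, 23% lower), among them 5542 of the 6217 called. Leaving out a library can only raise this number. It was 13612 without day 14 replicate 3, 11549 without the library labelled day 14 replicate 1 and 12499 without day 7 replicate 2. With all libraries, the spread between heads was wider at day 7 and day 14 than at day 0. The median SD of log2 CPM was 0.24 over the day 0 libraries, 0.42 over the day 7 libraries and 0.45 over the day 14 libraries. Without day 7 replicate 2 it was 0.18 at day 7, so that the wider spread of day 7 rested on that library. At day 14 it was 0.38 without the library labelled replicate 1 and 0.28 without replicate 3. Values over 2 libraries are not directly comparable with those over 3.

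Transcripts of fewer gene models filled more of the reads at day 14 than at day 7. Gene models at 1 CPM or more numbered 16197, 16057 and 17163 in day 14 replicates 1 to 3, and 17784, 18331 and 17512 in day 7 replicates 1 to 3. The groups did not overlap (mean 16472 ± 602 at day 14 and 17876 ± 417 at day 7, SD, n = 3 each; exact permutation test, two-sided p = 0.1, the smallest that 3 against 3 allows). The 100 most abundant gene models of each library held 26.0%, 27.2% and 18.5% of the reads in gene models in day 14 replicates 1 to 3. In day 7 replicates 1 to 3 they held 17.3%, 14.9% and 16.5%, and again the groups did not overlap (exact permutation test, two-sided p = 0.1, n = 3 each). The highest day 7 value and the value of day 14 replicate 3 lay close together. In day 0 replicates 1 to 3 the share was 20.9%, 19.1% and 19.3%, above that of day 14 replicate 3, so that no steady rise over storage is shown.

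The most abundant transcripts were exchanged. Of the 10 gene models with the highest mean CPM at day 14, 2 were among the 10 highest at day 7, and 8 were called higher. The first of them had 47813, 47958 and 7725 CPM in day 14 replicates 1 to 3, and 225, 258 and 316 CPM in day 7 replicates 1 to 3. Its level in day 14 replicate 3 was thus well below that of the other heads of that day and far above day 7. It ranked 466th at day 7 and was higher at day 14 by 7.02 on the log2 scale (edgeR, adjusted p = 0.00448). Among the 100 highest at each day, 45 were shared, and 50 of the day 14 set were called higher and 2 lower. Of the 100 highest at day 7, 21 were called lower and 6 higher. These sets were ranked on values that the calls also use, so that an excess of such calls is built in. The day 14 ranks can lean on replicates 1 and 2: the fourth gene model had 16206, 19612 and 193 CPM in day 14 replicates 1 to 3. Gene models called higher held 42.6%, 43.9% and 25.2% of the reads of day 14 replicates 1 to 3 and 12.2%, 9.20% and 11.6% of those of day 7 replicates 1 to 3. They had been picked for being higher at day 14, so that these shares show size and support nothing. Gene models called lower, picked in the same way, held 2.92%, 3.14% and 6.52% of the reads of day 14 replicates 1 to 3 and 14.7%, 19.8% and 14.9% of those of day 7 replicates 1 to 3. In the day 0 libraries, which are on neither side of the comparison, gene models called higher held 13.2% to 13.4% of the reads.

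Under the rule for naming, 4 IDs are given, the pairs with the largest rises and falls among 1026 gene models that were called with and without the doubtful pair, did not overlap between the days and held at least 30 reads in the lower group. V2_01g014730.1.01 was almost silent before the later week. It had 0, 0 and 0.0419 CPM in day 0 replicates 1 to 3, then 0.0379, 0.287 and 0.343 CPM in day 7 replicates 1 to 3, and 2349, 222 and 18.4 CPM in day 14 replicates 1 to 3. All day 14 values were above all day 7 values, and the day 14 heads differed among themselves more than 100-fold. V2_01g014730.1.01 rose by 11.92 ± 2.23 on the log2 scale (SE; edgeR, adjusted p = 0.000498). The library labelled replicate 1 held 77857 of its 84801 reads at day 14, and without the doubtful pair its rise was 9.28 ± 2.37 (SE; adjusted p = 0.0197). It was also higher at day 14 in the other cultivars, at 213 ± 135 CPM against 11.9 ± 16.4 CPM at day 7 in OP, 249 ± 290 against 2.51 ± 1.65 CPM in IS and 716 ± 735 against 1.77 ± 1.76 CPM in GQ (SD, n = 3 each; edgeR, adjusted p = 0.0482, 0.0369 and 0.000756).

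V2_02g018880.1.01 became the sixth most abundant gene model of the GGI heart at day 14. It had 0.182, 0.0389 and 0.0209 CPM in day 0 replicates 1 to 3, then 2.43, 29.0 and 3.15 CPM in day 7 replicates 1 to 3, and 5465, 13865 and 801 CPM in day 14 replicates 1 to 3. The highest day 7 value was that of the library high in reads outside gene models, and the lowest day 14 value was again that of replicate 3. Its rise was 9.19 ± 1.95 on the log2 scale (SE; edgeR, adjusted p = 0.0017), and 11.36 ± 2.52 (SE; adjusted p = 0.0116) without the doubtful pair. Levels of V2_02g018880.1.01 at day 14 were 6710 ± 6620 CPM in GGI, against 117 ± 57.5 CPM in OP, 116 ± 151 CPM in IS and 4158 ± 3792 CPM in GQ (SD, n = 3 each). At day 7 it had 0 reads in the 3 OP libraries and 4 reads over the 3 GQ libraries, against 8.70 ± 8.45 CPM in IS (SD, n = 3). It was called higher at day 14 in OP and GQ (edgeR, adjusted p = 0.000876 and 3.41e-05), where the fitted size rests on those few reads and is not given, and it was not called in IS (adjusted p = 0.175). The difference in change of GGI did not pass against IS, at 5.45 on the log2 scale (SE 2.07; adjusted p = 0.251), nor against GQ (adjusted p = 0.0628).

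V2_13g001560.1.01 was at its highest at day 7 in GGI. It had 2.44, 1.38 and 10.7 CPM in day 0 replicates 1 to 3, then 56.4, 41.2 and 120 CPM in day 7 replicates 1 to 3, and 0.0302, 0.564 and 0.587 CPM in day 14 replicates 1 to 3. Every day 7 head was above every day 0 head, and every day 14 head was below both. The fall of V2_13g001560.1.01 from day 7 was -7.52 ± 1.63 on the log2 scale (SE; edgeR, adjusted p = 0.00162), and -7.25 ± 1.95 (SE; adjusted p = 0.0259) without the doubtful pair. In OP it moved the other way, with 144, 598 and 71.7 CPM in day 14 replicates 1 to 3 and 26.5, 13.1 and 0.820 CPM in day 7 replicates 1 to 3, a log2 change of 4.39 ± 1.39 (SE; adjusted p = 0.0194). The difference between GGI and OP passed the test, at -11.91 ± 2.14 on the log2 scale (SE; edgeR, adjusted p = 0.00991), and also passed without the 6 libraries that stood apart (adjusted p = 0.0273). Day 7 replicate 1 of OP is a shallow library of 5.76 M reads, in which V2_13g001560.1.01 had 96 reads.

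V2_01g016890.1.01 was well expressed before storage and nearly gone at day 14. It had 52.4, 50.9 and 155 CPM in day 0 replicates 1 to 3, then 10.2, 203 and 21.0 CPM in day 7 replicates 1 to 3, and 0.483, 0 and 1.59 CPM in day 14 replicates 1 to 3. The day 7 value of 203 CPM is that of the library high in reads outside gene models, and its part in the result was measured by leaving it out. The fall of V2_01g016890.1.01 was -6.79 ± 1.20 on the log2 scale (SE; edgeR, adjusted p = 0.000291), and -4.26 ± 1.16 (SE; adjusted p = 0.0277) without the doubtful pair. It fell in OP (0.571 ± 0.731 CPM at day 14 and 12.9 ± 6.94 CPM at day 7; adjusted p = 0.00336) and in GQ (0.369 ± 0.366 and 59.2 ± 28.0 CPM; adjusted p = 4.26e-05). In IS it was at 1.66 ± 0.787 CPM at day 14 and 8.30 ± 3.02 CPM at day 7 (SD, n = 3 each), which did not pass (edgeR, adjusted p = 0.184).

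**Figure D3:**
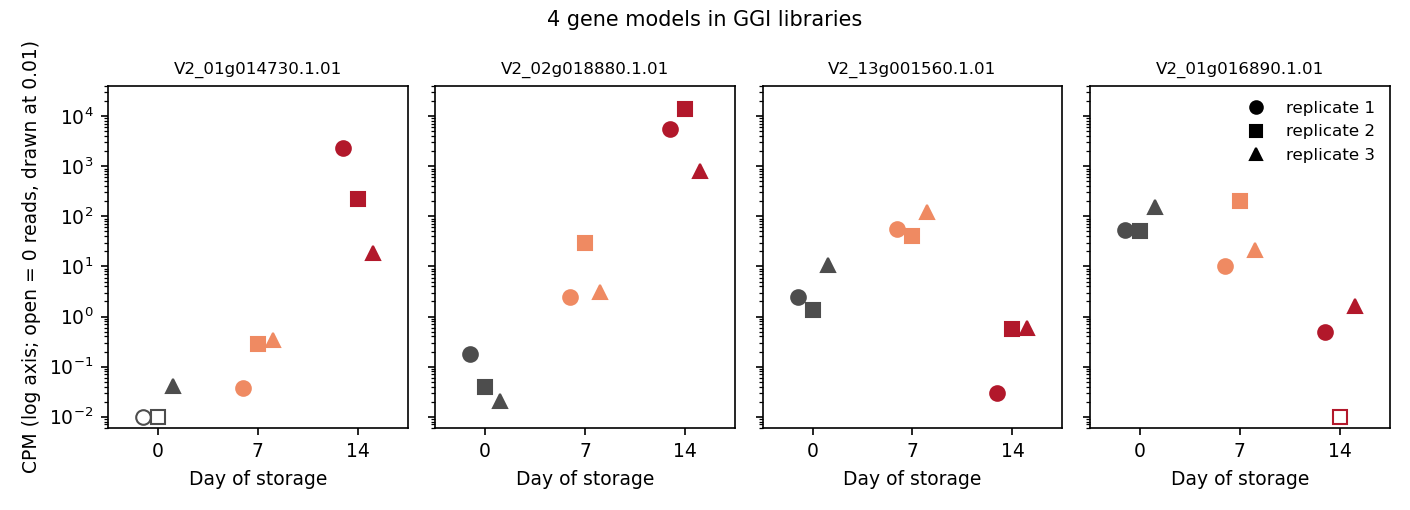
CPM of the named gene models (log axis) in each GGI library at day 0, day 7 and day 14, with a symbol per replicate number and open symbols for 0 reads. The first and second panels show the rises to 2349 and 13865 CPM at most, and the third shows the high day 7 values of 41.2 to 120 CPM between low days.

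Gene models abundant before storage were more often called lower than higher in the later week. GGI day 0 libraries were used to group the 21900 gene models by mean CPM. They are on neither side of the comparison, but they entered the filter, the scaling and the estimate of spread. Of 1779 gene models over 100 CPM at day 0, 10.4% were called higher at day 14 and 17.5% lower, against 14.7% and 13.7% over all gene models tested. The groups from 0.1 to 1, 1 to 10 and 10 to 100 CPM had 11.3%, 12.7% and 15.7% higher, and 14.4%, 16.3% and 12.6% lower, which gives no steady order. Of 1346 tested gene models under 0.1 CPM, 28.9% were higher and 3.86% lower. The files hold 7884 gene models at that level, and those tested had to reach the minimum count in another group, so that the excess of rises among them is built into the filter and is read as no result. Over 100 CPM, 2.30% were higher and 3.6% lower without the doubtful pair, and 9.44% higher and 15.3% lower without the 6 libraries that stood apart.

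**Figure D4:**
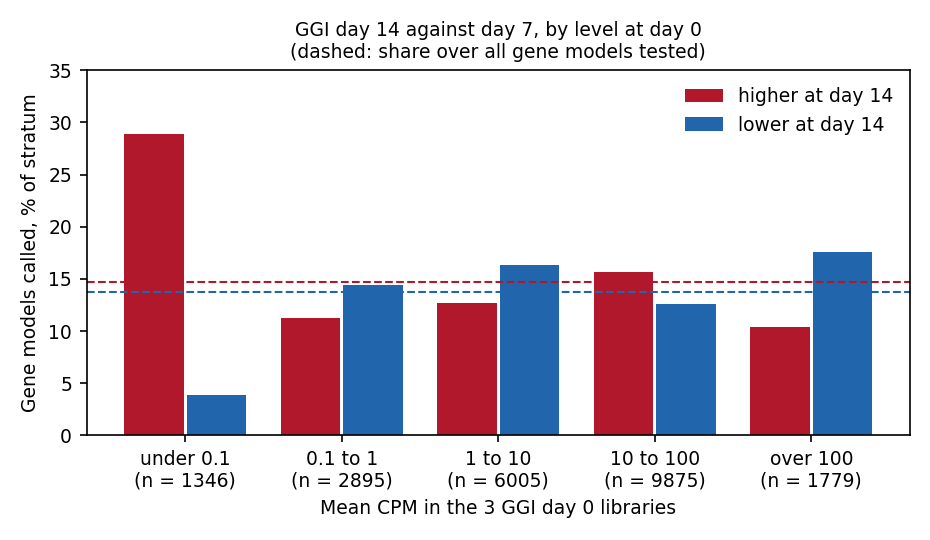
Share of gene models called higher (red) and lower (blue) at day 14 than at day 7 in GGI, by mean CPM in the 3 GGI day 0 libraries, with dashed lines at the shares over all gene models tested (14.7% and 13.7%). Gene models over 100 CPM at day 0 were more often called lower (17.5%) than higher (10.4%), and the tall bar under 0.1 CPM (28.9%) covers gene models that passed the filter through another group.

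At the extremes, 8 gene models had 0 reads in the 3 day 7 libraries, for which 3 counts over the 128 M reads set an upper limit of 0.0235 CPM, and at least 1 CPM in each day 14 library. All 8 were called, which follows from how they were picked and supports nothing. Of the 8, 7 had 0 reads at day 0 as well. The day 14 means of the 8 ran from 1.40 to 131 CPM with a median of 8.42 CPM. The reverse, 0 reads in the day 14 libraries and at least 1 CPM in each day 7 library, was seen in 1 gene model, at a day 7 mean of 5.37 CPM. The limit covers counting error only. Such gene models pass the filter through the group where they are high, and the counts, out of 21900 tested, carry no test.

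The share called differed little between the 17 numbers in the IDs. No positions were at hand, so that the spread of calls over the genome was not examined. Each ID carries one of 17 numbers or a scaffold name, and the share called lay between 26.4% (number 04) and 30.8% (number 03), against 28.4% over all gene models. Gene models called higher made up 13.1% to 16.4% per number, and those called lower 11.9% to 16.1%. The 144 tested gene models with a scaffold name had 17.4% called.

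Gene models that changed in the later week in OP and IS mostly moved the same way in GGI. These cultivars share no library with GGI and hold none of the libraries with crossed GGI and GQ markers, though OP holds the shallow library. Of 318 gene models called higher at day 14 in both OP and IS, 279 were called higher in GGI and 0 lower, with a median log2 change of 2.06, against 0 over all gene models tested. Of 175 called lower in both, 135 were called lower in GGI and 0 higher, with a median of -1.99. Over all gene models tested, 14.7% were called higher and 13.7% lower in GGI. Without the doubtful pair, 195 of the 318 and 63 of the 175 were called in the same direction, with medians of 1.99 and -1.80, so that the sizes changed little where the calls were fewer. The shares over all gene models in that fit were 4.28% higher and 2.53% lower. With the 6 libraries that stood apart left out throughout, the sets were 1305 and 1387, of which 942 and 812 were called in the same direction and 0 and 4 in the opposite one. There, 13.7% of all gene models were called higher and 12.1% lower.

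On these gene models each GGI head could be placed, since they were chosen by the changes in OP and IS. The filter, the scaling and the estimate of spread cover all libraries, so that GGI values were not wholly outside that choice. The median log2 CPM of the 318 was 3.15, 3.08 and 3.07 in day 0 replicates 1 to 3, then 3.69, 3.41 and 3.68 at day 7 and 5.69, 6.00 and 5.23 at day 14. The 175 had 4.92, 4.75 and 4.61 in day 0 replicates 1 to 3, then 4.14, 4.23 and 3.90 at day 7 and 1.37, 1.35 and 2.39 at day 14. On both sets day 7 lay nearer to day 0 than to day 14. The sets were picked for changing from day 7 to day 14 in OP and IS, so that this order is partly built in. It does not show that little changed before day 7. Over all 21900 gene models, GGI day 7 and day 0 libraries correlated at r = 0.85 to 0.90, and day 14 and day 7 libraries at 0.73 to 0.92. Day 14 replicate 3 was the nearest to day 7 among the day 14 libraries in each set, and the library labelled replicate 1 lay beside replicate 2.

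**Figure D5:**
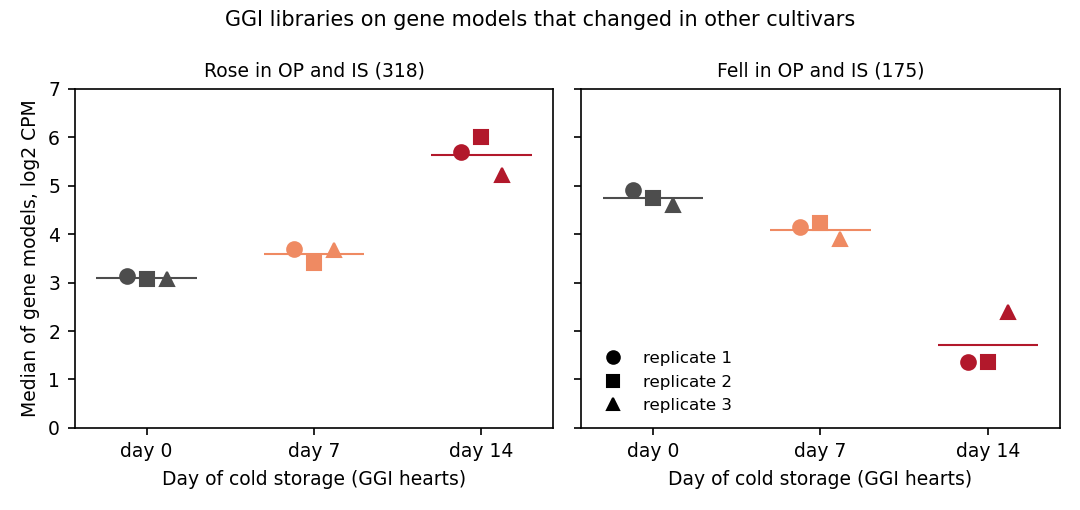
Median log2 CPM of the 318 gene models that rose (left) and the 175 that fell (right) from day 7 to day 14 in both OP and IS, in each GGI library at day 0, day 7 and day 14, with a line at the mean of the 3 libraries. Day 14 lies at 5.23 to 6.00 on the left and at 1.35 to 2.39 on the right, outside the range of the other days.

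The later week of GGI was then set against that of the other cultivars, by testing the difference in change for each gene model in the same fit. Counts of calls alone differed widely, with 6217 in GGI (28.4%), 6061 in OP (27.7%, of which 14.5% higher and 13.2% lower), 707 in IS (3.23%, of which 1.87% higher and 1.36% lower) and 10792 in GQ (49.3%, of which 26.6% higher and 22.7% lower). Their order rested on the libraries in the fit, since without the 6 that stood apart the counts were 5851 in GGI, 8432 in OP, 4246 in IS and 5493 in GQ. The change itself differed from the mean of the other cultivars in 79 gene models (0.361%; 45 or 0.205% higher, 34 or 0.155% lower in GGI), and in 50 of them the fitted changes had opposite signs. Against OP the difference was called in 363 gene models (1.66%; 0.639% higher, 1.02% lower), against IS in 12 (0.0548%; 0.0457% higher, 0.00913% lower) and against GQ in 2349 (10.7%; 5.81% higher, 4.91% lower). A gene model that misses this test is not shown to change alike in the cultivars.

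The number of these differences moved with the libraries in the fit. Without the 6 that stood apart, 10 gene models differed from the mean of the others, 240 from OP, 17 from IS and 160 from GQ. The GQ groups hold 3 of the 6, among them a day 14 library with GGI marker states (35 of the 39 markers). Without the doubtful GGI pair the counts were 1 against the mean, 24 against OP, 0 against IS (edgeR; 1311 at an unadjusted p under 0.05) and 1337 against GQ. Without the 4 high in reads outside gene models they were 98 against the mean, 500 against OP, 103 against IS and 306 against GQ. Without GGI day 14 replicate 3, which is not among the 6, they were 794 against the mean, 986 against OP, 822 against IS and 2054 against GQ. With DESeq2 and all libraries they were 1085 against the mean, 1589 against OP, 670 against IS and 4599 against GQ.

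In direction the cultivars shared much of the later week. Of the 6217 GGI calls, 2789 were called in the same direction in OP (44.9% of the GGI and 46.0% of the OP calls) and 50 in the opposite one. With IS, 531 were called in the same direction (8.54% of the GGI and 75.1% of the IS calls) and 3 in the opposite one. With GQ, 3915 were called in the same direction (63.0% of the GGI and 36.3% of the GQ calls) and 91 in the opposite one. Over all gene models tested, 14.5% were called higher and 13.2% lower in OP. The shares were 1.87% and 1.36% in IS, 26.6% and 22.7% in GQ, and 14.7% and 13.7% in GGI. Without the 6 libraries, the calls in the same direction were 3450 with OP (59.0% of the GGI and 40.9% of the OP calls), 2373 with IS (40.6% and 55.9%) and 2601 with GQ (44.5% and 47.4%), and those in the opposite direction 52, 15 and 25. Of all 22649 gene models tested there, 4129 were called higher and 4303 lower in OP. The counts were 1965 and 2281 in IS, and 3022 and 2471 in GQ. Fitted log2 changes correlated across the 21900 gene models with r = 0.56 for OP, 0.54 for IS and 0.63 for GQ, and with r = 0.55, 0.53 and 0.59 without the 6 libraries. The pairs share no library, and gene models are not independent replicates. With all libraries, GGI and GQ each hold a day 14 library with the marker states of the other. The GGI and GQ values with all libraries are therefore not those of separate cultivars alone.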

How the data were processed

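RNA-seq of artichoke hearts was deposited as 1 table per library, with whole-number counts of reads per gene model that the authors had not normalized, for 28632 gene models. The submitters' processing notes name cutadapt and STAR. The counting tool, genome build, annotation and strand setting: not given in the sources used here. Overlapping or near-identical gene models are therefore uncertain. The 5 summary rows were left out. They held 15.4% to 18.6% of the reads listed in 5 of the 6 GGI libraries and 42.2% in day 7 replicate 2. Groups and replicate numbers came from titles. None of the 630 pairs of libraries agreed within sampling noise (lowest chi-square per degree of freedom 55.1), so each counts once. The labels call the replicates biological, and p-values cover only how these libraries vary.

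The tests used edgeR 4.0.16 under R 4.3.3 with limma 3.58.1: filterByExpr (minimum count 10, minimum total 15), TMM scaling, glmQLFit with robust estimation over 36 libraries in 12 groups, and glmQLFTest with Benjamini-Hochberg adjustment over the 21900 gene models tested (biological coefficient of variation 0.506). DESeq2 1.42.0 was an alternative. CPM are TMM-scaled, except for markers, detected gene models and read shares, and log2 CPM use a prior count of 2. Markers were on over 1 CPM and off under 0.1 CPM at day 0, and read as on over 0.316 CPM. Standard errors are the absolute log2 change over the square root of F. The IDs named had the largest fitted changes among those called with and without the doubtful pair, with at least 30 reads in the lower group, mean log2 CPM of at least 1 and no overlap. The sets from OP and IS and the use of abundance ranks were chosen after the data were seen, and members, lists and rules were all chosen with earlier results of these data known. Gene lists by product name could not be made. In simulated counts for 21900 gene models, 100 were changed 2-fold and 100 were changed 4-fold in GGI at day 14. All others were left unchanged between the days, which makes the adjusted p harder to pass than in the data. On these counts, the test of day 14 against day 7 in GGI recovered 5 of 100 changes of 2-fold and 51 of 100 of 4-fold, with 4 of 60 calls on unchanged gene models. The test of GGI against the mean of the other cultivars recovered 3 and 38, with 1 of 42. Alternatives were RLE scaling, no filter, DESeq2, fits on fewer libraries, a replicate block and leaving out libraries.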

Additional observations from a re-analysis of the deposited data

Results flagged for a closer look

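The change from day 7 to day 14 differed between GGI and other cultivars in tests of the difference itself (edgeR), in 79 gene models against the mean of the others, 363 against OP, 12 against IS and 2349 against GQ. The last count is 160 without the 6 libraries that stood apart. Of the 2349, 121 were among those 160.

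Among the named gene models, V2_13g001560.1.01 was picked out by the same test. Its change in GGI differed by -8.74 on the log2 scale from the mean of the other cultivars (SE 1.78; edgeR, adjusted p = 0.0351), by -11.91 from OP (adjusted p = 0.00991) and by -8.18 from GQ (adjusted p = 0.018). Against IS the difference of -6.13 did not pass (adjusted p = 0.15). The call against the mean was lost in 8 alternatives, with adjusted p = 0.0833 without the 6 libraries and 0.238 without the doubtful pair, at differences from -8.17 to -9.25.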

How the results depend on the processing

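Calls of day 14 against day 7 stayed within 1.5 times of 6217 under RLE scaling, without the filter, with DESeq2 and with the replicate block over 36 libraries (5179), and in the fits without the 4 libraries high in reads outside gene models or all 6 that stood apart. RLE scaling and DESeq2 gave more lower than higher calls (2954 higher, 3344 lower; 3592 and 4264), with a median change of all gene models of -0.07 on the log2 scale. The counts were 3085 in the 6 libraries alone (2806 over 2-fold), 1511 (1459) without the doubtful pair, and 118, all over 2-fold, with the replicate block in the 6 libraries. With 1 library left out they ran from 3498 to 6979 (3240 to 6366). The median absolute log2 change of called gene models was 2.14. It was 4.97 with the block in the 6 libraries, 2.80 without the pair, 1.5 without the 6 and 1.48 without the 4.

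Differences from the other cultivars moved with the libraries and the tool. Against the mean of the others, counts were 0 in day 7 and day 14 libraries alone (edgeR; 2479 at an unadjusted p under 0.05), 3 with the replicate block, 1 without the pair, 10 without the 6, 1085 with DESeq2, and 0 to 794 with 1 library left out. Against OP they were 0 (2796 unadjusted), 54, 24, 240, 1589, and 69 to 986. Against IS they were 0 (1884), 0 with the block (2195), 0 without the pair (1311), 103 without the 4, 670 with DESeq2, and 0 to 822. Against GQ they were 41, 1175 with the block, 1337, 160, 306 without the 4, 4599 with DESeq2, and 674 to 2390.

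The log2 difference of V2_01g016890.1.01 from the mean of the other cultivars, -2.08, did not pass and changed sign, to 0.45 without the pair, 0.12 without the 6, 0.0315 without the 4 and 0.25 without GGI day 7 replicate 2 (-3.56 to 0.25 with 1 library left out). With the block in the 6 libraries, each of the 4 named changes missed the threshold (edgeR, adjusted p from 0.0544 to 0.125), and V2_01g016890.1.01 also missed it in those libraries alone (0.0523). The replicate numbers did not pair the libraries: deviations of same-numbered libraries correlated at 0.00, 0.14 and 0.04, and of the day 14 libraries only replicate 2 correlated best with its own number. The causes of these shifts were not tested. In simulated counts with nearly all gene models unchanged, 5 of 100 changes of 2-fold were recovered. Far more gene models were called in the data, so that this share does not carry over to them.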

Other observations

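Gene models whose level varied most between heads at day 0 were called lower more often in the later week, and not called higher more often. Among gene models with a mean of at least 10 CPM in the GGI day 0 libraries, the 2914 with the largest day 0 spread (median SD 0.40 of log2 CPM) had 32.3% called, 12.6% higher and 19.8% lower. The 2914 with the smallest spread (median SD 0.07) had 26.4% called, 15.5% higher and 10.8% lower. The groups between had 26.3% and 28.0% called, with 9.89% and 12.9% lower, and over all gene models tested 28.4% were called. Their median day 0 levels were 30.3 and 35.0 CPM. This grouping was chosen after the data were seen. The day 0 libraries also enter the estimate of spread behind the calls, so that grouping and calls are not independent.

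The day 14 libraries of GGI and GQ also paired across cultivars by correlation. Across 21900 gene models, the library labelled GGI day 14 replicate 1 correlated with r = 0.98 with GQ day 14 replicate 3, against 0.94 and 0.90 with the other GGI day 14 libraries. GGI day 14 replicate 2 correlated with r = 0.99 with the library labelled GQ day 14 replicate 1. GGI day 14 replicate 3 was nearest to GQ day 14 replicate 2 within that set, at r = 0.94.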
